A study of Homo sapiens with 6 samples.

Results

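The integrated stress response (ISR) core examined here comprised 10 genes, ATF4, DDIT3, CEBPB, ATF3, TRIB3, PPP1R15A, CHAC1, ASNS, SESN2 and DDIT4, out of 60662 genes with a value in every library. The genes were found by their symbols in the deposited tables. All 10 were among the 16901 genes that passed the filter on low values, 0.5 TPM or more in 3 or more libraries. They had been picked because their levels differed between the groups compared here, so that difference is described without a test.

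HCT116, an established human colorectal carcinoma cell line, was transduced with lentivirus carrying a pLKO.1 puro plasmid, and cells with a control hairpin (shCtrl) were compared with cells carrying GMDS-AS1 shRNA 2 (GMDS-AS1 KD). GMDS-AS1 is a long noncoding RNA that the study examined in colorectal cancer. Poly-A selected RNA from 3 samples per group, labelled as biological replicates, was sequenced from cells grown in McCoy's 5a medium with 10% serum, with no stress treatment named. Only 1 GMDS-AS1 hairpin was sequenced, and nothing says whether the replicates came from separate transductions, so any p-value measures only the spread between these samples. The unit is TPM, an abundance scaled to the library total and to transcript length. Levels can thus be set side by side between genes, with less certainty where annotated genes share bases.

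The ISR is the route by which cells slow protein synthesis under amino acid shortage, unfolded proteins, haem shortage, mitochondrial faults or viral RNA. Kinases that sense these states phosphorylate the translation initiation factor eIF2, which lowers general translation but favours a small set of messenger RNAs with short upstream reading frames, ATF4 among them. ATF4 protein then pairs with C/EBP family partners on composite sites in its target genes, and DDIT3, which encodes CHOP, is its best known partner and target.

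Short stretches around 3 motifs are given first, because they are the letters these factors are known to read. The core genes and the further ISR targets below were also chosen as known members of this response. Counts of these motifs are therefore not independent of that choice. Promoter windows from 250 bases before to 50 bases after each annotated start, from RefSeq on GRCh38.p14, were matched by symbol for all 10 core genes and were searched on both strands. The motifs were TGATGNAA, the core of the composite C/EBP-ATF site, TGACGTCA, the cyclic AMP response element, and TGANTCA, the AP-1 site, and no match of one motif overlapped a match of another. Capitals mark the motif, and each stretch is written 5′ to 3′ in the direction of its gene.
ASNS promoter, C/EBP-ATF core, 68 bases before the start: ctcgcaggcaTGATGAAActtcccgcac
ATF3 promoter, C/EBP-ATF core, 191 bases before the start: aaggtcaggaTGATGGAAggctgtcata
CHAC1 promoter, C/EBP-ATF core read on the opposite strand, 209 bases before the start: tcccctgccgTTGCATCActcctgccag
PPP1R15A promoter, cyclic AMP response element, 58 bases before the start: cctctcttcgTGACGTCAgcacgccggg
DDIT3 promoter, AP-1 site, 241 bases before the start: gcgcgcgcaTGACTCAcccacctcct

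These stretches lie at chr7:97872459-97872486 on the minus strand (ASNS), chr1:212565206-212565233 on the plus strand (ATF3), chr15:40953252-40953279 on the plus strand (CHAC1), chr19:48872353-48872380 on the plus strand (PPP1R15A) and chr12:57520739-57520764 on the minus strand (DDIT3). In GENCODE v29 the ATF3 and PPP1R15A stretches are intergenic, the ASNS and CHAC1 stretches lie in an exon of some transcript of the gene itself, and the DDIT3 stretch lies in an intron of its longest gene model and in an exon of MBD6 on the opposite strand. The C/EBP-ATF core was present in 3 of the 10 core genes and in 4.46% of the 27305 genes with a promoter window. The cyclic AMP response element was in 1 of 10 against 2.25%, and the AP-1 site in 1 of 10 against 9.37%. Of 30 further ISR target genes, 22 had a window, and 5 of these held the C/EBP-ATF core, namely SLC3A2, CARS1, GARS1, AARS1 and FGF21. A match describes letters and not a bound site, and the absence of one concerns this window only.

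The hairpin is shown next because it is the agent that separates the groups. Its target, with the 7 letters that pair with the guide seed (bases 2 to 8 of the guide) in capitals, is as follows.
GMDS-AS1 shRNA 2 target: aagaccacagataGATGGTAa

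The target lies at chr6:2413207-2413227 on the plus strand of GRCh38, in the third exon of both GENCODE v29 transcripts of GMDS-AS1 that hold it. None of the 19508 principal protein-coding transcripts searched held the whole target. The seed match GATGGTA was in the 3′ UTR of 0 of the 10 core genes and of 6.06% of 12928 tested protein-coding genes. GTGGTCT, the match to the seed of the passenger strand, was in that of 1 core gene, ASNS, and of 9.01%. GMDS-AS1 itself, which the annotation lists as GMDS-DT (ENSG00000250903), was measured at 1.66, 2.21 and 1.34 TPM in shCtrl and at 0.88, 0.91 and 0.79 TPM in GMDS-AS1 KD. These values are for the whole gene and do not separate transcripts with the target from any without it. Every KD value lay below every shCtrl value, as in 44.9% of all tested genes. The log2 fold change was -0.41 ± 0.14 (SE, n = 3 per group, limma, adjusted p = 0.0407). This call was lost without any of shCtrl replicate 1 (adjusted p = 0.0802 in limma), shCtrl replicate 2 (0.117), GMDS-AS1 KD replicate 1 (0.0823), replicate 2 (0.0714) or replicate 3 (0.101). A pseudocount of 0.1 in place of 1 gave -0.68 (adjusted p = 0.0419 in limma), and TPM as deposited gave -0.545 (0.0147).

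Library sums ran from 991058 to 992992 TPM, and TPM keeps no read total, so counting error is not known. Libraries were scaled by a trimmed mean before the fit, and values below are TPM as deposited unless called log2 fold changes, which are fitted on log2(TPM + 1) after scaling, understate low genes and are given as KD minus shCtrl. Without that scaling the median of all tested genes was -0.20 on the log2 scale instead of 0.00, and genes past 2-fold split into 225 higher and 1177 lower instead of 495 higher and 717 lower. HCT116 identity was examined with 10 epithelial and colorectal markers. KRT8, KRT18 and KRT19 were high, EPCAM averaged 156 and 149 TPM, CDX2 averaged 8.47 and 7.50 TPM, and VIL1, CEACAM5 and LGALS4 stayed under 1 TPM while CDX1 was at 0. The summed level of that list was 9172 to 9622 TPM in shCtrl and 3445 to 3547 TPM in KD, with KRT8 (log2 fold change -1.46) and KRT18 (-1.83) past 2-fold in limma (adjusted p = 1.7e-07 and 7.2e-08), and the part of this in the results below was not tested. Other cell types gave little signal, since 6 leukocyte markers summed to 8.02 to 9.67 and 7.45 to 8.65 TPM with PTPRC at 0 in every library, 6 fibroblast markers to 13.5 to 15.0 and 10.2 to 11.3 TPM, nearly all of it COL1A1, and 4 endothelial markers to at most 1.13 TPM.

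All 10 core genes were lower in GMDS-AS1 KD, and for each of them every KD library lay below every shCtrl library. Such separation downward was seen in 44.9% of all tested genes. On the fitted scale 9 of the 10 were lower by at least 2-fold, which describes how the genes were chosen and is no call. Over all tested genes 4.24% were called lower at 2-fold in limma, and nothing is read from the core count against that share. The median log2 fold change of the core was -1.64 and that of all tested genes was 0.00. The summed level of the core was 2795, 2747 and 2740 TPM in shCtrl and 776, 771 and 802 TPM in KD. In bulk RNA, a lower level per cell cannot be told apart from fewer cells that carry the transcript.

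**Figure D1:**
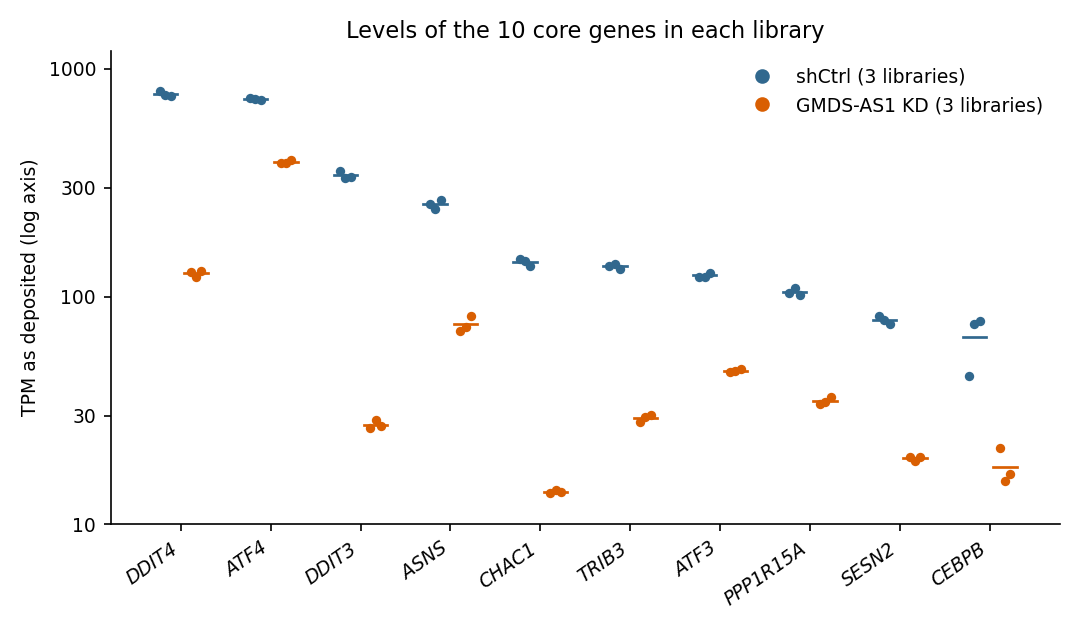
TPM as deposited (log axis) of the 10 core genes in each of the 3 shCtrl and 3 GMDS-AS1 KD libraries, with a bar at each group's mean, ordered by the shCtrl mean. For every gene all KD points lie below all shCtrl points, with DDIT3 and CHAC1 the farthest apart and the CEBPB points spread the most.

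The transcription factors are described first. ATF4, the factor at the head of the programme, was measured at 747, 740.2 and 726 TPM in shCtrl and at 387, 386 and 398 TPM in KD. ATF4 messenger RNA thus kept 52.9% of its shCtrl mean, and its log2 fold change of -0.67 ± 0.020 (SE, n = 3 per group) was the smallest of the core and the only one short of 2-fold. The gene lies at chr22:39519695-39522685 on the plus strand (GENCODE v29, GRCh38). TPM measures messenger RNA, and the step at which ATF4 is best known to be regulated, its translation, was not measured here.

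DDIT3 encodes CHOP, the C/EBP family factor known for its part in cell death under prolonged stress. Its levels were 356, 332 and 337 TPM in shCtrl and 26.6, 28.6 and 27.1 TPM in KD. KD libraries held 8.04% of the shCtrl mean, with a log2 fold change of -3.35 ± 0.046 (SE, n = 3 per group), the largest of the core. Across all 16901 tested genes, 4 had a larger decrease. Among them was ENSG00000285133 (-6.675), which lies within DDIT3 exons and is taken up below.

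CEBPB, another C/EBP factor and dimer partner of ATF4, was measured at 44.7, 75.9 and 78.0 TPM in shCtrl and at 21.7, 15.5 and 16.6 TPM in KD. The lowest shCtrl library stood well below the other two but above every KD library. CEBPB had the widest spread of the core, with a coefficient of variation of 28.1% in shCtrl and 18.3% in KD against at most 7.85% for any other core gene in either group. Its log2 fold change of -1.56 ± 0.23 (SE, n = 3 per group) was -1.84 without shCtrl replicate 1.

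ATF3, a stress-induced factor of the same basic leucine zipper class, was measured at 123, 122 and 127 TPM in shCtrl and at 46.5, 47.3 and 48.1 TPM in KD. Its coefficient of variation was at most 2.28% in either group, and the log2 fold change was -1.13 ± 0.036 (SE, n = 3 per group).

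The feedback genes followed. TRIB3 encodes a pseudokinase that binds ATF4 and CHOP and restrains them. It was measured at 136, 139 and 132 TPM in shCtrl and at 28.3, 29.7 and 30.2 TPM in KD, with a log2 fold change of -1.93 ± 0.037. PPP1R15A encodes the stress-induced subunit that directs a phosphatase to eIF2 and so ends the response. Its levels were 104, 109.6 and 101 TPM in shCtrl and 33.9, 34.4 and 36.3 TPM in KD, with a log2 fold change of -1.32 ± 0.040 (SE, n = 3 per group for both genes). Neither gene's groups overlapped.

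Among the metabolic effectors, CHAC1, an enzyme that degrades glutathione, was measured at 147, 143 and 136 TPM in shCtrl and at 13.8, 14.2 and 13.8 TPM in KD. KD held 9.80% of its shCtrl mean, and its log2 fold change of -3.02 ± 0.040 (SE, n = 3 per group) was next to that of DDIT3. ASNS, which makes asparagine, was measured at 256, 242 and 265 TPM in shCtrl and at 70.9, 73.7 and 82.3 TPM in KD, with a log2 fold change of -1.49 ± 0.062. ASNS shares 1985 exonic bases on the same strand with the annotated locus ENSG00000284707, which was at 60.0, 61.4 and 59.3 TPM in shCtrl and at 16.5, 14.9 and 16.2 TPM in KD, and how the counting split reads between them is not stated.

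SESN2 and DDIT4 both encode inhibitors of mTORC1, the kinase complex that promotes growth when nutrients are present. SESN2 was measured at 82.4, 79.0 and 75.9 TPM in shCtrl and at 19.7, 19.0 and 19.8 TPM in KD, a log2 fold change of -1.73 ± 0.039. DDIT4 was the most abundant core gene in shCtrl, at 801, 764 and 762 TPM, and was at 128, 122 and 129.6 TPM in KD, a log2 fold change of -2.36 ± 0.028 (SE, n = 3 per group for both genes). Under the 14 other settings tried, the log2 fold change of DDIT3 ranged from -3.59 to -3.32, that of CHAC1 from -3.26 to -3.01 and that of ATF4 from -0.92 to -0.66.

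**Figure D2:**
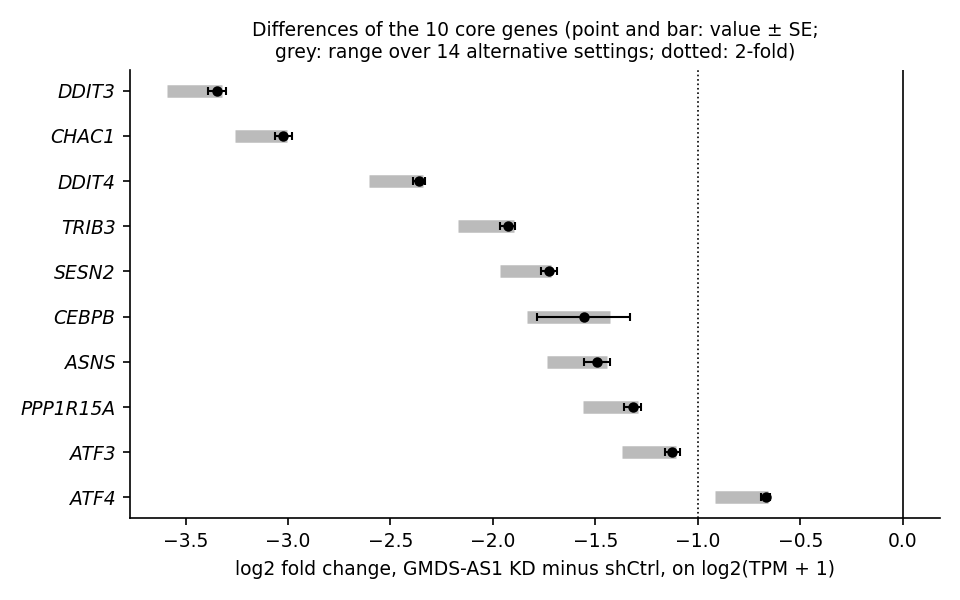
Log2 fold change of each core gene (GMDS-AS1 KD minus shCtrl, on log2(TPM + 1) after scaling) with its SE, and in grey the range over the 14 other settings. DDIT3 at -3.35 and CHAC1 at -3.02 stand lowest, ATF4 at -0.67 lies to the right of the dotted 2-fold line, and no range reaches 0.

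The order of the levels differed between the groups. In shCtrl it was DDIT4, ATF4, DDIT3, ASNS, CHAC1, TRIB3, ATF3, PPP1R15A, SESN2 and CEBPB. Neighbours in this order lay apart in every library except CHAC1 and TRIB3, and SESN2 and CEBPB, whose values overlapped. In KD the order was ATF4, DDIT4, ASNS, ATF3, PPP1R15A, TRIB3, DDIT3, SESN2, CEBPB and CHAC1, with overlap between TRIB3 and DDIT3 and between SESN2 and CEBPB. DDIT3 thus stood at rank 3 in shCtrl and at rank 7 in KD, and CHAC1 at rank 5 and rank 10.

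A ratio to ATF4 within a library does not depend on the scaling between libraries. DDIT3 was at 0.476, 0.449 and 0.464 TPM per ATF4 TPM in shCtrl and at 0.0687, 0.0741 and 0.0682 in KD. CHAC1 was at 0.197, 0.194 and 0.188 per ATF4 TPM in shCtrl and at 0.0356, 0.0368 and 0.0348 in KD. ATF3 was the closest of the 9 genes to keeping its ratio, with means of 0.168 ± 0.0061 and 0.121 ± 0.0012 (SD, n = 3 per group). The ratio was lower in every KD library than in every shCtrl library for all 9 genes, although for CEBPB the nearest libraries stood at 0.0599 (shCtrl) and 0.0561 (KD). ATF4 had the smallest fall of the core, so lower ratios for the other 9 restate the fold changes above. They are not a separate result. The ratio of DDIT3 to CHAC1 was 2.40 ± 0.079 in shCtrl and 1.97 ± 0.042 in KD (SD, n = 3 per group), so it too was lower in KD but by less than the ratio of either gene to ATF4.

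**Figure D3:**
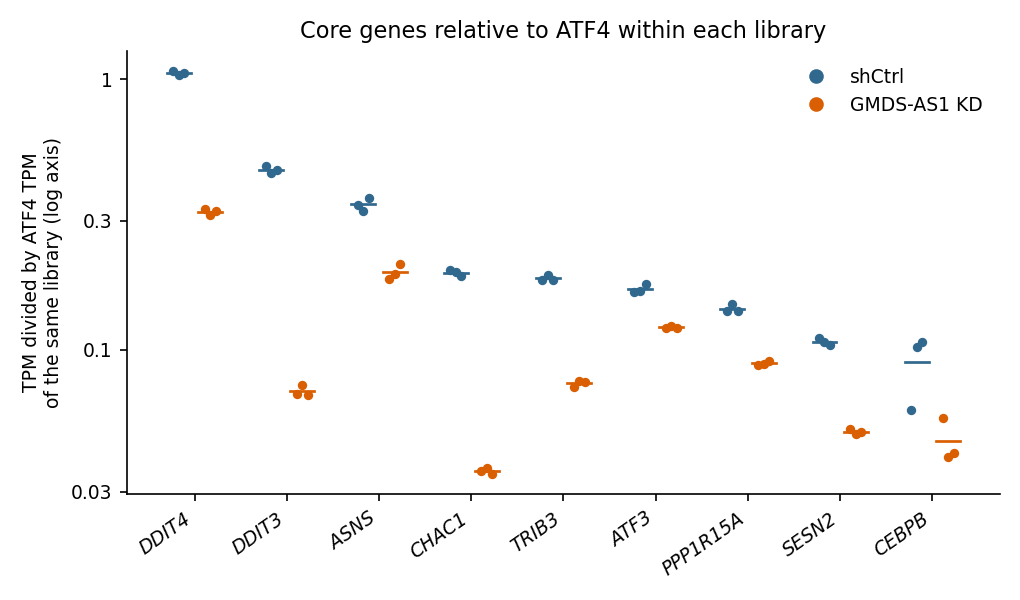
TPM of each core gene divided by ATF4 TPM of the same library (log axis), 3 points per group with a bar at the mean. Every gene sits lower relative to ATF4 in GMDS-AS1 KD, from 0.463 to 0.0703 for DDIT3 down to a narrow gap for the closest CEBPB libraries. This direction follows from ATF4 having the smallest fall of the core.

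DDIT3 was examined further because 3 other annotated genes share its exons. It lies at chr12:57516588-57521737 on the minus strand with 6 transcripts. ENSG00000285133 consists of 105 exonic bases, all of them within exons of DDIT3, and 5 of the 6 DDIT3 transcripts hold both of its exons. In each of those 5 transcripts the first upstream reading frame of the leader is also 105 bases long, so this locus occupies the upstream reading frame through which DDIT3 translation is known to be held back. It was listed at 1220, 1310 and 1158 TPM in shCtrl and at 16.6, 0 and 64.6 TPM in KD, which is 3.43, 3.94 and 3.44 times DDIT3 in the shCtrl libraries and 0.624, 0 and 2.38 times DDIT3 in the KD libraries. The KD values scattered far more than those of DDIT3, and since the bases are shared they are not a separate measurement. How the counting split reads between the 2 entries is not stated, so the level, rank and fold change of DDIT3 also depend on that split.

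MARS1, a methionyl-tRNA synthetase gene on the opposite strand, shares 355 exonic bases with DDIT3, and MBD6 shares 58. The library kit is not stated to keep strand, so reads from these bases cannot be told apart. MARS1 averaged 248 ± 13.6 TPM in shCtrl and 184 ± 11.9 TPM in KD (SD, n = 3 per group), a log2 fold change of -0.18 ± 0.057 (SE). DDIT3 was thus above MARS1 in every shCtrl library and below it in every KD library.

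**Figure D4:**
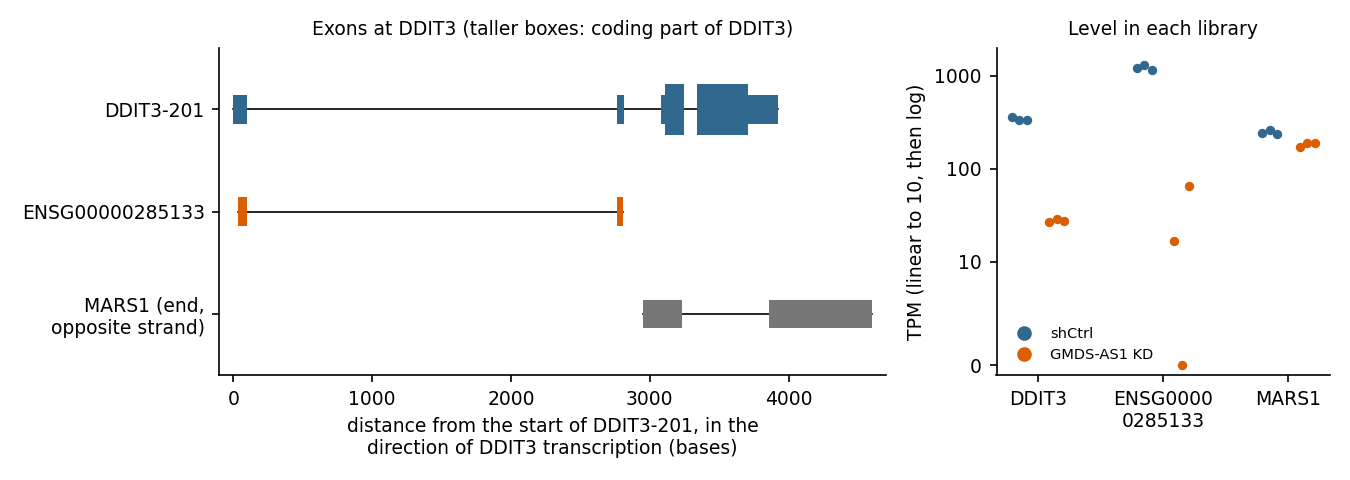
Left, exons of DDIT3-201, ENSG00000285133 and the end of MARS1 by distance in bases from the start of DDIT3-201, with the coding part of DDIT3 drawn taller. Right, TPM of the 3 genes in each library (linear to 10, then log); ENSG00000285133 lies inside the first 2 exons of DDIT3 and spreads from 0 to 64.6 TPM in GMDS-AS1 KD.

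Leaders of the core genes were read from GENCODE v29, taking 1 principal transcript per gene. An upstream ATG was present in 8 of the 10 core genes and in 51.7% of 12928 tested protein-coding genes. A frame that overlaps the main one was present in 4 of 10 (ATF4, DDIT3, ATF3 and CHAC1) against 17.3%. ATF4-201 has the longest leader of the core, 882 bases with 7 upstream ATGs, of which 2 open frames that run into the main one. For DDIT3 the choice of transcript matters, because DDIT3-206, the one taken, lacks the exon with the 105-base frame, whereas DDIT3-201 has 3 upstream ATGs in 180 bases. The place of DDIT3 among the 4 also depends on this choice. In DDIT3-202, DDIT3-203, DDIT3-204 and DDIT3-205 every upstream frame ends inside the leader. CEBPB and DDIT4 have no upstream ATG. Near-identical copies took few reads, since each of the 8 listed pseudogenes of ATF4 and ASNS stayed under 0.5 TPM in every library.

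The wider ISR target list of 30 genes, of which 29 were tested, was also mostly lower. In the limma fit over all genes 10 fell by at least 2-fold against 4.24% of tested genes, and 1 rose by that much against 2.93%. At any fold 22 fell and 5 rose with adjusted p under 0.05, where 25.9% of all tested genes fell and 28.5% rose. The list median was -0.77 on the log2 scale. With TPM as deposited 14 fell and 0 rose by at least 2-fold, where 6.96% of all tested genes fell and 1.33% rose, and 24 fell and 4 rose at any fold, where 40.3% fell and 16.3% rose. The largest falls were in PCK2, mitochondrial PEP carboxykinase, from 104 ± 2.55 to 12.9 ± 0.51 TPM (log2 fold change -2.69, limma adjusted p = 1.1e-07), in SLC3A2 (-1.91) and SLC7A5 (-1.90), the subunits of a leucine transporter, and in STC2, a secreted glycoprotein hormone (-1.86). SLC3A2, SLC7A5 and STC2 had limma adjusted p of 2.9e-07, 8.8e-08 and 5.6e-07.

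Other genes of this list rose or did not pass. BBC3, which encodes the pro-apoptotic protein PUMA and is also a p53 target, rose from 32.2, 37.6 and 32.3 TPM to 67.2, 63.5 and 62.7 TPM (log2 fold change 1.15 ± 0.064 (SE), limma adjusted p = 1.3e-05), and with TPM as deposited it rose by 0.91, short of 2-fold. KLHL24 (0.83), ERO1A, an oxidase of disulfide formation in the endoplasmic reticulum (0.48), and EIF4EBP1, a repressor of cap-dependent translation (0.42), also rose, with limma adjusted p of 0.00272, 0.00159 and 0.000273. GDF15 rose by 0.16 after scaling (limma adjusted p = 0.00147) although its TPM as deposited averaged 902 and 851. SHMT2 (-0.05) and NUPR1 (-0.28) did not pass, and VLDLR was not tested. This list and the gene lists below were written with earlier results of these data known, so their directions and counts are not independent evidence.

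The kinases and factors upstream of ATF4 did not share a direction. EIF2AK1, the haem-sensing kinase, fell from 51.4, 52.5 and 48.1 TPM to 34.5, 31.0 and 31.8 TPM (log2 fold change -0.39, limma adjusted p = 0.000665). EIF2AK2, EIF2AK3 and EIF2AK4, which sense double-stranded RNA, unfolded protein and amino acid shortage, rose by 0.51, 0.53 and 0.39 on the log2 scale (limma adjusted p = 0.000462, 0.00203 and 0.000299). Of the 16 genes in this list 5 fell and 10 rose at any fold in limma, where 25.9% of all tested genes fell and 28.5% rose, and the median was 0.29. With TPM as deposited 5 fell and 7 rose, where 40.3% of all tested genes fell and 16.3% rose. Past 2-fold were 1 gene lower and 1 higher of the 16, against 4.24% and 2.93% of all tested genes. The lower was IMPACT, an inhibitor of EIF2AK4 activation, at -1.04 (18.1 ± 0.58 to 6.92 ± 0.23 TPM, limma adjusted p = 1.7e-05). The higher was EIF2B3, a subunit of the eIF2 exchange factor, at 1.13 (10.3 ± 1.13 to 20.2 ± 1.27 TPM, limma adjusted p = 4.6e-05). EIF2B3 rose by 0.90 with TPM as deposited, short of 2-fold. DELE1, which relays mitochondrial stress, and EIF2S3, a subunit of eIF2, fell by 0.57 and 0.46, and EIF2B5 and EIF2S1, another subunit of each complex, rose by 0.85 and 0.55. Phosphorylated eIF2 was not measured here.

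Relatives of the core genes were compared gene by gene, of which 12 of 13 were tested. JDP2, a bZIP repressor related to ATF3, fell from 20.3, 20.9 and 19.5 TPM to 3.48, 3.25 and 2.87 TPM (log2 fold change -2.13, limma adjusted p = 2.3e-06). ATF5, the closest relative of ATF4, fell by 1.38 and CEBPG, another partner of ATF4, fell by 0.96 (limma adjusted p = 0.000209 and 3.8e-06). DDIT4L (-0.45) and TRIB1 (-0.42) fell, while CHAC2 (0.42) and SESN1 (0.31) rose, with limma adjusted p from 4.4e-05 to 0.0184. The DDIT4L call was lost with no filter (adjusted p = 0.0778 in limma) and without shCtrl replicate 1 (0.0522), shCtrl replicate 2 (0.0545) or GMDS-AS1 KD replicate 2 (0.0520), and the CHAC2 call without shCtrl replicate 2 (0.0583). CEBPA (-0.04), CEBPD (0.05), TRIB2 (0.16), SESN3 (-0.08) and PPP1R15B (0.09), the constitutive counterpart of PPP1R15A, did not pass. With TPM as deposited, CEBPD and TRIB2 turned to negative values without passing, PPP1R15B (-0.15) and CEBPA (-0.245) passed as lower (limma adjusted p = 0.0353 and 0.0414), and neither CHAC2 nor SESN1 passed. The median of the list was -0.06.

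Other stress programmes were set beside the ISR core. Of 18 genes of the unfolded protein response of the endoplasmic reticulum, 12 fell and 2 rose at any fold in limma, none past 2-fold, against 25.9% and 28.5% of all tested genes at any fold, and the median was -0.27. HERPUD1, a factor of protein degradation at that membrane, was at the edge (-0.999, limma adjusted p = 1.1e-05), followed by the sensor ATF6 (-0.86), SEL1L (-0.74) and the sensor ERN1 (-0.57), with limma adjusted p from 2.9e-05 to 0.00281. SDF2L1 (0.56) and SYVN1 (0.21) rose. The SYVN1 call was lost with TPM as deposited, with upper-quartile scaling (adjusted p = 0.114 in limma) and without shCtrl replicate 1 (0.0646), GMDS-AS1 KD replicate 1 (0.0581) or replicate 3 (0.0515). With TPM as deposited 15 fell and 1 rose at any fold, against 40.3% and 16.3% of all tested genes, and 2 were lower by at least 2-fold, against 6.96%.

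Heat shock genes lay on the other side, in a list that was also written with earlier results known and is not independent evidence. All 9 tested genes of the 10 rose, 5 of them past 2-fold in limma, against 2.93% of all tested genes, with a median of 1.16, and all 9 also rose with TPM as deposited, 4 of them past 2-fold, against 1.33%. In each of the 9 every KD library lay above every shCtrl library, as in 18.8% of all tested genes. HSPA1B, an inducible chaperone, was at 56.3, 57.3 and 56.2 TPM in shCtrl and at 306, 296 and 323 TPM in KD (log2 fold change 2.67 ± 0.032 (SE), limma adjusted p = 7.2e-08). HSPA1A, its near-identical copy, was at 0 to 0.35 TPM in every library and was not tested, so the division of reads between the pair is uncertain. HSPA8 (2.00), HSPB1 (1.90) and HSPE1 (1.301) rose with limma adjusted p of 7.2e-08, 9.5e-08 and 1.6e-06.

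Hypoxia and p53 target genes differed less. Of 10 hypoxia genes 5 fell and 1 rose in limma, none past 2-fold, against 25.9% and 28.5% of all tested genes at any fold. VEGFA, the vascular growth factor, fell by 0.92, EGLN3 by 0.84, ANKRD37 by 0.58 and KDM3A by 0.25, and BNIP3 rose by 0.37, with limma adjusted p from 8.8e-06 to 0.00642. With TPM as deposited 8 of these genes fell and 0 rose in limma, the BNIP3 call being lost (adjusted p = 0.167), against 40.3% and 16.3% of all tested genes, and 2 were lower by at least 2-fold, against 6.96%. Of 12 p53 targets 1 fell and 6 rose, against 25.9% and 28.5% of all tested genes, and with TPM as deposited 4 fell and 6 rose, against 40.3% and 16.3%. MDM2, the p53 ubiquitin ligase, rose by 1.40 and TP53INP1 by 1.22, the only 2 of the 12 past 2-fold, against 2.93% of all tested genes. FDXR (0.92) and AEN (0.70) followed, and ZMAT3 fell by 0.57, with limma adjusted p of all these genes from 1.8e-06 to 0.000319. TP53INP1 rose by 0.99 with TPM as deposited, just short of 2-fold.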

How the data were processed

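The authors deposited 1 TPM value per gene and library, and per the labels reads were trimmed with Trimmomatic 0.27 and aligned to GRCh38.p13 with TopHat2 2.1.1, while the methods name Cufflinks and RSEM for expression. TPM was scaled by a trimmed mean (30% of log ratios and 5% of mean values trimmed at each end) over the genes that reached 0.5 TPM in 3 or more libraries. Log2(TPM + 1) was compared between 3 shCtrl and 3 GMDS-AS1 KD libraries in R 4.3.3 using limma 3.58.1 with its trend option, Benjamini-Hochberg adjustment over 16901 genes, and 2-fold and adjusted p 0.05 thresholds. Tested on simulated data of this comparison with 16528 genes, the fit called 195 of 200 changed genes and 6 unchanged genes. Rises and falls were equal in number there, with fitted medians of 1.507 and -1.493. No changed gene was near the filter, and the groups did not differ in scaling. That check therefore cannot show how calls fare with the many changed genes and the scaling difference of the real data. Because TPM is not a count, no count model was used, and depth per library is unknown. Lines of 2 genes were broken and left out.

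The core genes and lists were chosen with earlier results of these data known. Named genes were all core genes, relatives and eIF2 kinases, GMDS-AS1, ENSG00000285133, the up to 4 largest falls and 4 largest rises past adjusted p 0.05 of each other list, and the 5 genes most like the core in pattern; other names serve a count, an overlap or a marker check and were chosen after their values were seen. Promoter windows came from RefSeq on GRCh38.p14, and leaders and UTRs from GENCODE v29, which holds 58394 of the gene identifiers.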

Additional observations from a re-analysis of the deposited data

How the results depend on the processing

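The 14 alternatives covered scaling, pseudocount, filter, variance trend, a replicate block and leaving out each library. All 10 core genes kept a negative log2 fold change in every one of them. The core median of -1.64 became -1.88 with TPM as deposited, -1.73 with upper-quartile scaling and -1.685 with a pseudocount of 0.1, and ranged from -1.78 to -1.60 when 1 library was left out. Genes called at 2-fold numbered 2209 with a pseudocount of 0.1 instead of 1212. Unfolded protein response genes called lower numbered 2 with TPM as deposited and 1 with upper-quartile scaling, with median of log ratios scaling and with a pseudocount of 0.1, instead of 0, and 0 to 1 with 1 library left out. Hypoxia genes called lower numbered 2 with TPM as deposited, and 1 with upper-quartile scaling and with a pseudocount of 0.1, instead of 0. Over all 16901 tested genes, those called lower at 2-fold numbered 1177 with TPM as deposited and 855 with upper-quartile scaling, instead of 717. They numbered 727 with median of log ratios scaling and 1468 with a pseudocount of 0.1. Nothing is read from moves of 1 or 2 list genes beside these totals. The GMDS-AS1 call was lost with no filter (log2 fold change -0.41, adjusted p = 0.132 in limma) and with a mean of at least 1 TPM in a group (-0.41, 0.0633), and its log2 fold change ranged from -0.52 to -0.30 when 1 library was left out.

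The labels do not say whether replicate numbers pair the samples. Deviations of same-numbered samples correlated at 0.029, -0.038 and 0.014 over all tested genes. Such values show no strong pairing but cannot exclude a weak one or one limited to some genes. With the replicate number as a block, GMDS-AS1 stood at -0.41 (adjusted p = 0.0518 in limma), so its call was lost, while the core median stayed at -1.64.

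Near-zero genes changed sign. CEBPD stood at -0.16 with TPM as deposited, -0.028 with upper-quartile scaling, and from -0.11 to 0.17 when 1 library was left out. PPP1R15B (-0.15), TRIB2 (-0.026) and SYVN1 (-0.03) changed sign with TPM as deposited. Leaving out the scaling moved every log2 fold change downward, since the mean log2 scaling factor was -0.248 for KD minus shCtrl. Low genes moved less. The cause of the other shifts, the lost call under the block included, was not tested. With 3 libraries per group and no read totals, small differences cannot be weighed by depth.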

Other observations

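Genes outside the core were ranked by how closely their log2(TPM + 1) followed the mean standardised profile of the 10 core genes over the 6 libraries. The closest 5 of 7890 genes with a mean of at least 10 TPM were PCK2, ETV5, LACTB2, SLC7A5 and CCN1. PCK2 and SLC7A5 belong to the list of ISR targets, ETV5 is an ETS family transcription factor, LACTB2 an RNase of mitochondria, and CCN1 a secreted matrix protein. CCN1 averaged 71.6 TPM in shCtrl and 9.33 TPM in GMDS-AS1 KD, ETV5 46.6 and 17.9 TPM, and LACTB2 31.5 and 19.4 TPM. The 6 libraries fall into 2 groups, so the ranking mainly describes the gap between groups and how tight each group is, and 445 genes reached a Pearson correlation of 0.99 with the profile.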
